A study of Homo sapiens with 6 samples.

Results

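BMP, activin and TGF-beta signalling was examined in PLC/PRF/5 cells, a human hepatoma line, through 49 genes out of the 25071 in the count table. The genes were taken from a list of ligands, receptors, SMAD proteins, inhibitors and ID genes, and all 49 had an entry. Total RNA was sequenced after ribosomal RNA depletion from 3 libraries of cells transfected with a plasmid overexpressing ARD1 and 3 libraries of cells transfected with a control vector, all harvested after 48 hours. Both groups therefore share the cell line, a transfection and the interval, and they differ in the plasmid. The sample titles do not say whether the groups were handled side by side, so batch and plasmid cannot be told apart. ARD1, the product of the NAA10 gene, acetylates the N-termini of nascent proteins, and the study's title places it in ferroptosis of hepatocellular carcinoma. All libraries come from 1 cell line, and in bulk RNA fewer cells of a type and less RNA per cell cannot be told apart.

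The ligands of this family are secreted dimers that bind pairs of type I and type II serine/threonine kinase receptors. BMP receptors phosphorylate SMAD1, SMAD5 and SMAD9, activin and TGF-beta receptors phosphorylate SMAD2 and SMAD3, and both sets enter the nucleus with SMAD4. In the liver, BMP signalling induces hepcidin and the ID genes, whereas TGF-beta is known for growth arrest of hepatocytes and for fibrosis, and both routes induce the inhibitory SMADs that dampen them.

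NAA10 had 355, 400.2 and 294 CPM (counts scaled to library size with TMM factors) in the ARD1 libraries, against 35.6, 32.2 and 36.2 CPM in the control libraries. Its log2 fold change was 3.34 (SE 0.107, edgeR adjusted p = 3.53e-12), so the transfected gene matched the labels. A library held 21857327 to 25011357 counts, and a count of 3 corresponded to 0.120 to 0.137 CPM. The 3 ARD1 libraries were alike, with a chi-square over genes of 2.44 to 4.09 per degree of freedom for each pair, and so were control replicates 2 and 3, at 2.86. Control replicate 1 differed more, at 15.95 from replicate 2 and 18.5 from replicate 3. Of the 8 hepatocyte markers, 3 fell, 3 rose and 2 were not tested: ALB averaged 36.3 CPM in ARD1 libraries and 315 CPM in control libraries, HNF4A averaged 41.5 CPM in ARD1 libraries and 35.0 CPM in control libraries, and APOA1 and TTR were near 0 in both. Their sum was 101 to 112 CPM in ARD1 libraries and 512 to 533 CPM in control libraries. Of the 4 epithelial markers, 3 fell and none rose, with a sum of 1808 to 1880 CPM in ARD1 libraries and 2772 to 3558 CPM in control libraries, while EPCAM was near 0 in both. Markers of other cell types also moved, in both directions. The 7 fibroblast and stellate markers, of which 2 fell and 1 rose, summed to 18.2 to 20.7 CPM in ARD1 libraries and 78.1 to 98.8 CPM in control libraries, led by LUM at 14.8 CPM in ARD1 libraries and 59.8 CPM in control libraries. The 6 endothelial markers, of which 1 fell and 3 rose, summed to 90.2 to 103 CPM in ARD1 libraries and 70.0 to 82.7 CPM in control libraries. Among them CDH5 averaged 0.0677 CPM in ARD1 libraries and 33.1 CPM in control libraries, and PECAM1 57.7 CPM in ARD1 libraries and 32.7 CPM in control libraries. The 5 immune markers, of which 2 fell and none rose, summed to 8.66 to 9.49 CPM in ARD1 libraries and 16.1 to 18.7 CPM in control libraries. Other markers of these lists, COL1A2, CLDN5 and CD3E, were near 0 in both groups, and the part of these shifts in the results below was not tested.

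In ARD1 libraries the direct BMP response genes ID1, ID2 and ID3 and the inhibitory SMAD6 and SMAD7 all fell, as did the ligands BMP2, BMP4, INHBA and TGFB2 and the receptor TGFBR2. TGFB1, BMP6, the activin subunits INHBC and INHBE, the receptors ACVR1, ACVR1B and ACVR2A, SMAD5 and SMURF2 rose. The test was edgeR's quasi-likelihood fit across the whole table, and a Benjamini-Hochberg adjusted p under 0.05 is called a rise or a fall here. Of the 49 genes, 42 had enough counts to be tested, and 27 of these, or 64.3%, passed, where 64.6% of the 15816 tested genes passed. The 27 split into 15 that rose and 12 that fell, beside 32.4% of all tested genes called higher and 32.2% called lower. The share of the pathway's genes that passed was thus near that of the table as a whole. The median log2 fold change was 0.09 over the 42 genes and 0.03 over all tested genes, and the median absolute value was 0.38 and 0.49. Changes of at least 2-fold among the called genes numbered 7 in the pathway, or 16.7% of those tested, against 21.5% of all tested genes. The libraries of the groups did not overlap for 31 of the 42 genes, or 73.8%, where this held for 69.6% of all tested genes. They did not overlap for any of the 27 that passed, as for 97.8% of all genes that passed.

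**Figure D1:**
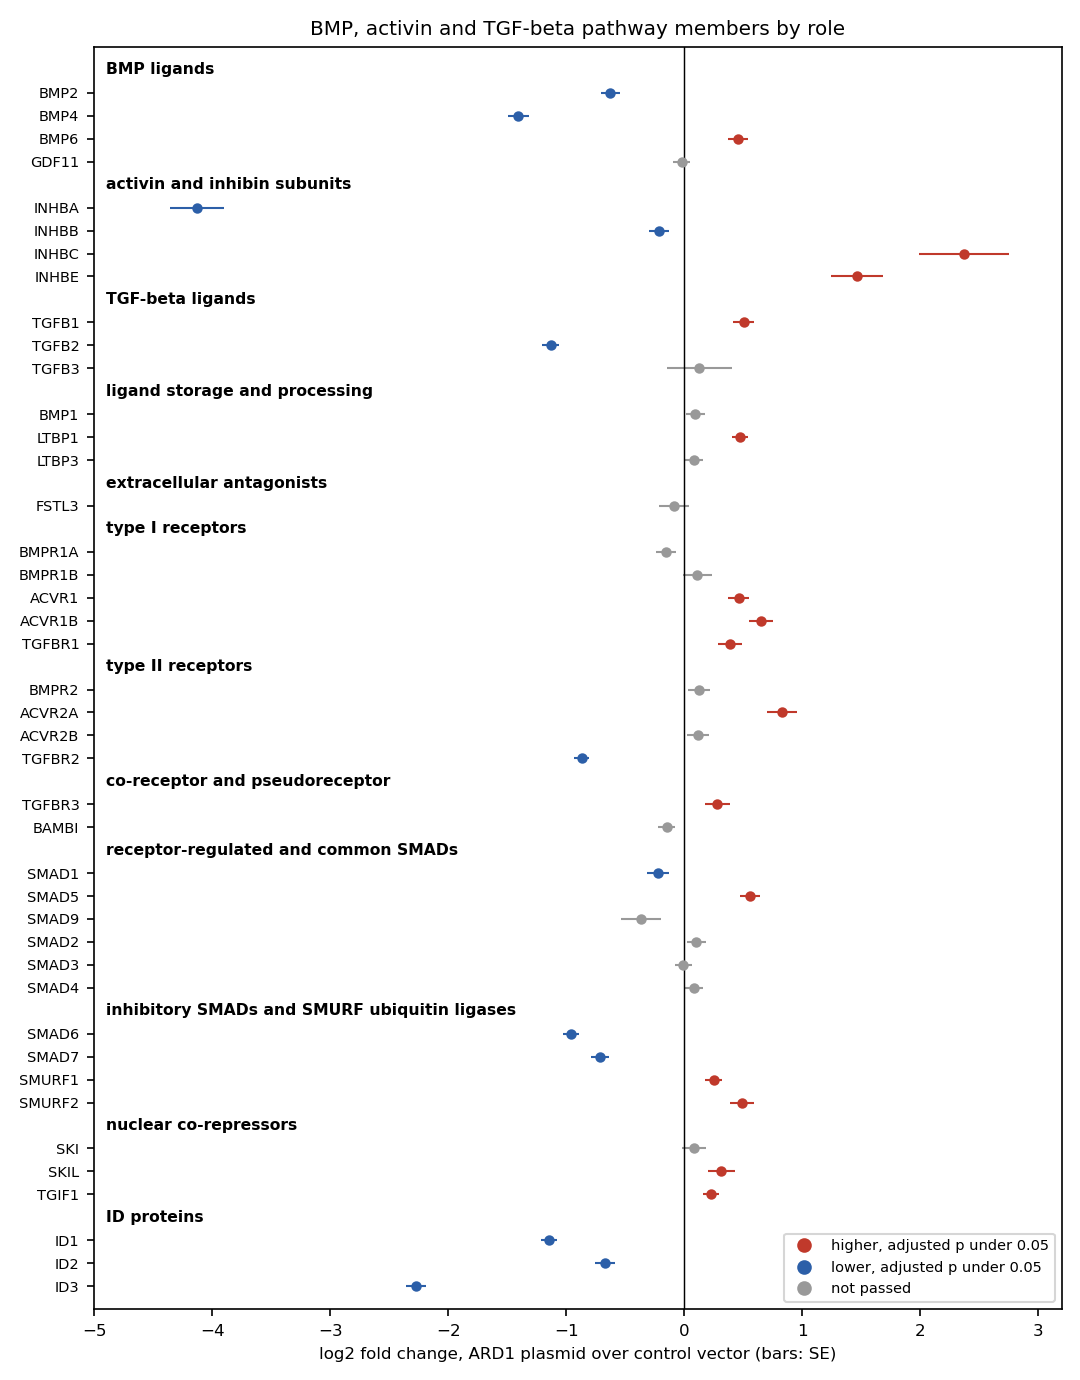
Log2 fold changes, ARD1 plasmid over control vector, of the 42 tested pathway genes, ordered by role, with bars for the standard error, red points for genes that rose, blue for genes that fell and grey for genes that did not pass. The 3 ID genes sit at -0.67 to -2.28, INHBA lies farthest down at -4.12, and INHBC lies farthest up at 2.37.

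Among the BMP ligands, BMP2 and BMP4 fell and BMP6 rose. BMP4 (ENSG00000125378, chr14:53949736-53958761, GRCh38), a ligand of early mesoderm and gut patterning, had 16.8, 17.8 and 16.4 CPM in ARD1 libraries, against 45.2, 42.1 and 48.2 CPM in control libraries. All 3 ARD1 libraries were below all 3 controls, and the log2 fold change was -1.41 (SE 0.0896, edgeR adjusted p = 4.46e-09), a 2.65-fold lower level. BMP2, which drives bone formation and, from liver endothelium, hepcidin in hepatocytes, had 46.5, 50.3 and 43.5 CPM in ARD1 libraries and 72.4, 75.5 and 68.8 CPM in control libraries. These did not overlap either, with a log2 fold change of -0.63 (SE 0.0797, edgeR adjusted p = 7.06e-06). BMP6, the main inducer of hepcidin in response to iron, had 46.2, 42.1 and 43.4 CPM in ARD1 libraries and 29.4, 34.3 and 32.3 CPM in control libraries. Every ARD1 library was the higher, and the log2 fold change was 0.46 (SE 0.0860, edgeR adjusted p = 0.000287). Per kilobase of exon, BMP6 was at 15.8 ± 0.740 CPM in ARD1 libraries and 11.5 ± 0.874 CPM in control libraries (SD, n = 3 each). BMP2 was at 13.0 ± 0.953 CPM per kilobase in ARD1 libraries and 20.1 ± 0.923 CPM per kilobase in control libraries, so BMP6 was the highest BMP ligand in ARD1 libraries and BMP2 in control libraries. GDF11, a regulator of axial patterning, was only listed with the BMP ligands. It averaged 81.1 ± 2.69 CPM in ARD1 libraries and 82.3 ± 3.99 CPM in control libraries, and its groups overlapped (log2 fold change -0.02, edgeR adjusted p = 0.794). GDF11 passed as higher with library totals (log2 fold change 0.24, edgeR adjusted p = 0.00543). With GC content and transcript length modelled it passed as lower (log2 fold change -0.15, edgeR adjusted p = 0.0212). Of those too low to test, BMP7 had 2, 1 and 1 counts in ARD1 libraries and 0, 0 and 1 in control libraries. BMP8B, nearly identical to BMP8A so that its reads may be split, had 9, 7 and 26 counts in ARD1 libraries and 8, 8 and 5 in control libraries.

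The activin subunits moved in both directions. INHBA (ENSG00000122641, chr7:41667168-41705834), the beta A subunit of activin A, had 0.418, 0.487 and 0.322 CPM in ARD1 libraries, against 6.50, 8.17 and 7.09 CPM in control libraries. The ARD1 libraries were all near the detection floor and far under the controls. Its log2 fold change of -4.12 (SE 0.229, edgeR adjusted p = 1.04e-09) was the greatest in size among the pathway's genes. INHBC (chr12:57434760-57450828) and INHBE (chr12:57452323-57459280), which lie side by side on the same strand and encode subunits made mainly in liver, both rose. INHBC had 1.34, 1.05 and 1.25 CPM in ARD1 libraries and 0.227, 0.190 and 0.269 CPM in control libraries, with a log2 fold change of 2.37 (SE 0.379, edgeR adjusted p = 6.52e-05). INHBE had 3.64, 3.49 and 3.42 CPM in ARD1 libraries and 1.41, 1.43 and 0.988 CPM in control libraries, with a log2 fold change of 1.46 (SE 0.220, edgeR adjusted p = 3.63e-05). Neither overlapped between groups, and both stayed at low levels. INHBA and INHBC were counted well in 1 group alone, so passing the filter on low counts already favoured a difference in them. INHBB, the beta B subunit, had 28.5, 28.2 and 28.1 CPM in ARD1 libraries and 34.5, 31.8 and 32.0 CPM in control libraries, a log2 fold change of -0.22 (SE 0.0829, edgeR adjusted p = 0.0332). That small fall lost its call when any ARD1 library was left out, with edgeR adjusted p of 0.0904, 0.0891 and 0.110 without replicates 1, 2 and 3. INHA, the alpha subunit that turns activins into inhibins, had 0, 1 and 0 counts in ARD1 libraries and 8, 3 and 1 in control libraries, with 8 of the 12 control counts in control replicate 1, so no fold is given.

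The TGF-beta ligands TGFB1 and TGFB2 moved in opposite directions. TGFB1, the isoform most tied to fibrosis, had 451, 439.5 and 427 CPM in ARD1 libraries, against 363, 278 and 289 CPM in control libraries. The ARD1 libraries were all higher, although control replicate 1 was closer to them than the other controls, and the log2 fold change was 0.50 (SE 0.0901, edgeR adjusted p = 0.000186). TGFB2 (chr1:218346235-218444619), which unlike TGFB1 needs the co-receptor TGFBR3 for efficient receptor binding, had 58.9, 57.3 and 59.5 CPM in ARD1 libraries and 126, 136 and 122 CPM in control libraries. It was 2.19-fold lower, with no overlap and a log2 fold change of -1.13 (SE 0.0722, edgeR adjusted p = 4.57e-09), and 26.6% of its exon bases lie in TGFB2-OT1 on the same strand, whose reads could be counted to either. TGFB3 was low in both groups, at 2.02 ± 0.483 CPM in ARD1 libraries and 1.86 ± 0.544 CPM in control libraries (SD, n = 3 each; edgeR adjusted p = 0.704). Per kilobase of exon, TGFB1 was at 135.6 ± 3.63 CPM in ARD1 libraries and 95.8 ± 14.3 CPM in control libraries, the highest of the 3. On that scale TGFB2 was at 11.4 CPM in ARD1 libraries and 24.9 CPM in control libraries, and TGFB3 at 0.411 CPM in ARD1 libraries and 0.378 CPM in control libraries.

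Of the genes that store, process or trap ligands, LTBP1 rose. LTBP1, which tethers latent TGF-beta to the matrix, had 217, 214 and 213 CPM in ARD1 libraries and 162, 156 and 147 CPM in control libraries. The groups lay well apart, with a log2 fold change of 0.47 (SE 0.0675, edgeR adjusted p = 2.30e-05). LTBP3, another latent TGF-beta binding protein, had 204, 193 and 198 CPM in ARD1 libraries and 208, 179 and 175 CPM in control libraries (log2 fold change 0.08, edgeR adjusted p = 0.370). BMP1, a procollagen C-proteinase that also frees ligands from their antagonists, had 69.5, 64.0 and 69.3 CPM in ARD1 libraries and 69.1, 62.0 and 59.0 CPM in control libraries (log2 fold change 0.09, edgeR adjusted p = 0.320). Both passed in 3 of the alternatives. LTBP3 had a log2 fold change of 0.15 without control replicate 1, 0.35 with library totals and 0.62 with GC content and transcript length modelled (edgeR adjusted p = 0.00415, 0.000421 and 1.24e-09). BMP1 had 0.15, 0.36 and 0.43 in the same alternatives (edgeR adjusted p = 0.0261, 0.000765 and 1.67e-06). Most extracellular antagonists had few counts. NOG had 3, 3 and 0 counts in ARD1 libraries and 2, 0 and 6 in control libraries, GREM1 had 1, 0 and 3 counts in ARD1 libraries and 0, 1 and 0 in control libraries, and FST had 2, 6 and 7 counts in ARD1 libraries and 3, 4 and 4 in control libraries. FSTL3, a secreted activin trap, was the 1 antagonist among the 49 genes with enough counts to test, at 12.8 ± 1.15 CPM in ARD1 libraries and 13.6 ± 2.17 CPM in control libraries (SD, n = 3 each; log2 fold change -0.09, edgeR adjusted p = 0.561). With GC and length modelled its log2 fold change was 0.39 (edgeR adjusted p = 0.00543).

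**Figure D2:**
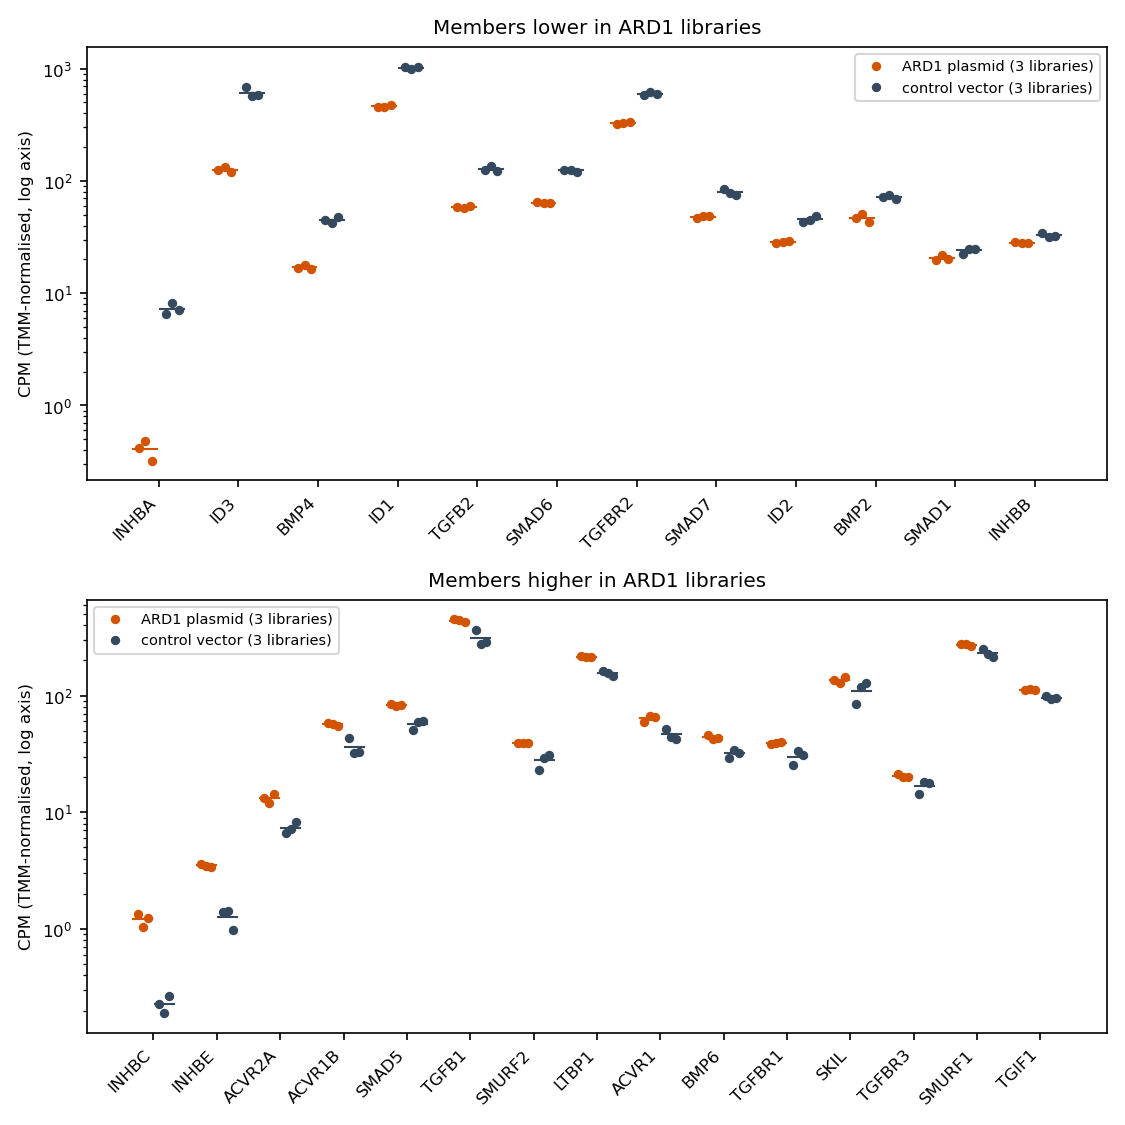
CPM on a log axis in each of the 6 libraries for the 27 called pathway genes, those lower in ARD1 libraries above and those higher below, with ARD1 libraries left of control libraries and a line at each group mean. ID3 lies at 121 to 134 CPM in ARD1 libraries and at 566 to 681 CPM in control libraries, and the groups of SKIL lie closest to overlap.

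Among the receptors, TGFBR2 fell whereas 4 others for activin, TGF-beta or BMP rose, and TGFBR3 rose by little. TGFBR2 (chr3:30606502-30694142), the type II receptor for TGF-beta, had 324, 329 and 333 CPM in ARD1 libraries, against 586, 617 and 599.7 CPM in control libraries. The libraries within a group were close together and the groups far apart, with a log2 fold change of -0.87 (SE 0.0640, edgeR adjusted p = 2.20e-08), 1.83-fold lower. Its partner TGFBR1, the type I receptor, had 38.5, 39.4 and 39.8 CPM in ARD1 libraries and 25.5, 33.3 and 31.2 CPM in control libraries. That rise had a log2 fold change of 0.39 (SE 0.0982, edgeR adjusted p = 0.00295), which was 0.10 (edgeR adjusted p = 0.183) once GC content and transcript length were modelled. ACVR1, a type I receptor for BMPs also known as ALK2, had 59.9, 66.4 and 65.1 CPM in ARD1 libraries and 52.0, 44.3 and 42.7 CPM in control libraries, a log2 fold change of 0.46 (SE 0.0878, edgeR adjusted p = 0.000319). ACVR1B, the type I activin receptor ALK4, had 58.7, 56.8 and 54.8 CPM in ARD1 libraries and 43.2, 32.1 and 33.1 CPM in control libraries, a log2 fold change of 0.65 (SE 0.104, edgeR adjusted p = 6.28e-05). All ARD1 libraries were above all controls for both genes. ACVR2A, a type II receptor shared by activins and BMPs, had 13.2, 11.9 and 14.3 CPM in ARD1 libraries and 6.69, 7.22 and 8.26 CPM in control libraries, a log2 fold change of 0.83 (SE 0.125, edgeR adjusted p = 3.86e-05). With 1.78-fold, it was the receptor that rose most. TGFBR3, the co-receptor betaglycan, had 21.1, 19.98 and 19.9 CPM in ARD1 libraries and 14.2, 18.1 and 17.9 CPM in control libraries (log2 fold change 0.28, edgeR adjusted p = 0.0333). Its call was lost without any 1 of the ARD1 replicates 1, 2 and 3 (edgeR adjusted p = 0.107, 0.0668 and 0.0622) and without control replicate 1 (log2 fold change 0.16, edgeR adjusted p = 0.100). It was also lost with GC and length modelled (log2 fold change 0.12, edgeR adjusted p = 0.230) and with DESeq2 (DESeq2 adjusted p = 0.0507).

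The remaining receptors did not pass. BMPR1A, a type I BMP receptor, had 34.4, 34.2 and 35.7 CPM in ARD1 libraries and 35.8, 40.5 and 39.6 CPM in control libraries (edgeR adjusted p = 0.116), and without control replicate 1 its log2 fold change was -0.22 (edgeR adjusted p = 0.00540). BMPR1B had 20.3, 20.4 and 23.6 CPM in ARD1 libraries and 16.0, 23.0 and 20.7 CPM in control libraries, and the groups overlapped (edgeR adjusted p = 0.451). BMPR2, the type II receptor specific to BMPs, had 84.2, 74.1 and 80.3 CPM in ARD1 libraries and 62.1, 79.5 and 77.5 CPM in control libraries (edgeR adjusted p = 0.266). ACVR2B differed little, with 15.9, 16.5 and 15.8 CPM in ARD1 libraries and 14.8, 15.2 and 14.5 CPM in control libraries (edgeR adjusted p = 0.305). BAMBI, a pseudoreceptor without kinase activity that blocks type I receptors, had 108, 111 and 113 CPM in ARD1 libraries and 133, 117 and 119 CPM in control libraries, separate but not past the threshold (log2 fold change -0.15, edgeR adjusted p = 0.0879). With GC and length modelled, BMPR1A and BMPR2 passed as lower, at log2 fold changes of -0.45 and -0.26 (edgeR adjusted p = 2.76e-06 and 0.000314). With library totals, BMPR1B, BMPR2 and ACVR2B passed as higher, at 0.37, 0.38 and 0.38 (edgeR adjusted p = 0.0316, 0.00634 and 0.00317). Per kilobase of exon, TGFBR2 was the highest of the 9 type I and type II receptors in both groups, at 69.9 ± 0.977 CPM in ARD1 libraries and 127.7 ± 3.27 CPM in control libraries (SD, n = 3 each). The other receptors lay at 1.02 to 16.0 CPM per kilobase in ARD1 libraries and 0.943 to 11.6 CPM per kilobase in control libraries.

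Among the signal-transducing SMADs, SMAD5 rose, SMAD1 fell by little, and the SMAD2, SMAD3 and SMAD4 group did not pass. SMAD5, a BMP-regulated SMAD, had 85.2, 82.1 and 82.7 CPM in ARD1 libraries, against 50.4, 59.3 and 60.5 CPM in control libraries. The groups were separate, with a log2 fold change of 0.56 (SE 0.0816, edgeR adjusted p = 2.90e-05) that was 0.19 (edgeR adjusted p = 0.00519) with GC and length modelled. SMAD1, its close relative, had 19.6, 22.01 and 20.1 CPM in ARD1 libraries and 22.6, 24.9 and 24.7 CPM in control libraries, a log2 fold change of -0.23 (SE 0.0934, edgeR adjusted p = 0.0456). The call on SMAD1 was lost without ARD1 replicate 1 or 3 (edgeR adjusted p = 0.172 and 0.148) and without control replicate 2 or 3 (edgeR adjusted p = 0.0848 and 0.0648). SMAD9 was low, with 3.47, 3.49 and 3.22 CPM in ARD1 libraries and 3.82, 5.09 and 4.22 CPM in control libraries (log2 fold change -0.36, edgeR adjusted p = 0.0745). It passed as lower without control replicate 1 (log2 fold change -0.46, edgeR adjusted p = 0.0274) and with GC and length modelled (log2 fold change -0.52, edgeR adjusted p = 0.00989). SMAD3, which carries activin and TGF-beta signals, averaged 272 ± 8.32 CPM in ARD1 libraries and 273 ± 18.3 CPM in control libraries (SD, n = 3 each; log2 fold change -0.01, SE 0.0704, edgeR adjusted p = 0.939). SMAD2 had 60.4, 54.1 and 60.2 CPM in ARD1 libraries and 51.5, 56.4 and 54.7 CPM in control libraries (edgeR adjusted p = 0.265). The shared partner SMAD4 had 68.0, 73.9 and 68.2 CPM in ARD1 libraries and 63.5, 71.4 and 63.6 CPM in control libraries (edgeR adjusted p = 0.372). With GC and length modelled, SMAD2 and SMAD4 passed as lower, at log2 fold changes of -0.28 and -0.19 (edgeR adjusted p = 0.000506 and 0.0125), and with library totals SMAD2, SMAD3 and SMAD4 passed as higher, at 0.37, 0.26 and 0.35 (edgeR adjusted p = 0.00158, 0.00192 and 0.00192).

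The inhibitory SMADs fell and the SMURF ubiquitin ligases, which SMAD7 recruits to degrade receptors, rose. SMAD6, which blocks mainly BMP signals, had 65.0, 63.1 and 63.1 CPM in ARD1 libraries, against 126, 126 and 120.3 CPM in control libraries. Its level was 1.95-fold lower with tight replicates, at a log2 fold change of -0.96 (SE 0.0684, edgeR adjusted p = 1.54e-08). SMAD7, which blocks TGF-beta, activin and BMP signals, had 46.3, 49.2 and 49.1 CPM in ARD1 libraries and 84.1, 78.5 and 74.4 CPM in control libraries. The groups were again separate, at a log2 fold change of -0.71 (SE 0.0762, edgeR adjusted p = 1.21e-06). SMURF2 had 39.5, 39.0 and 39.0 CPM in ARD1 libraries and 23.2, 29.1 and 31.2 CPM in control libraries, a log2 fold change of 0.49 (SE 0.102, edgeR adjusted p = 0.000678). With GC and length modelled, the log2 fold change of SMURF2 was 0.22 (edgeR adjusted p = 0.00547). SMURF1 had 276, 278 and 265 CPM in ARD1 libraries and 249, 227 and 213 CPM in control libraries, a log2 fold change of 0.25 (SE 0.0725, edgeR adjusted p = 0.00736). The SMURF1 call was lost without control replicate 2 or 3 (edgeR adjusted p = 0.0616 and 0.0891), and 11.7% of its exon bases lie opposite exons of TRRAP. Of the nuclear co-repressors of SMADs in the list, TGIF1 and SKIL rose by little and SKI did not pass. TGIF1 had 111, 113 and 113 CPM in ARD1 libraries and 99.3, 93.6 and 94.96 CPM in control libraries (log2 fold change 0.23, edgeR adjusted p = 0.00828), and lost its call without control replicate 2 or 3 (edgeR adjusted p = 0.0751 and 0.0564). With GC and length modelled, TGIF1 also lost it, at a log2 fold change of 0.064 (edgeR adjusted p = 0.406). SKIL had 136, 127 and 145 CPM in ARD1 libraries and 84.3, 117 and 127 CPM in control libraries, with control replicate 1 the lowest (log2 fold change 0.31, edgeR adjusted p = 0.0276). It lost the call without ARD1 replicate 1 or 3 (edgeR adjusted p = 0.0595 and 0.0968) and changed sign, at -0.15 (edgeR adjusted p = 0.0177), with GC and length modelled. SKI had 75.4, 67.0 and 74.5 CPM in ARD1 libraries and 79.5, 65.5 and 59.6 CPM in control libraries (edgeR adjusted p = 0.475), and passed without control replicate 1 (log2 fold change 0.20, edgeR adjusted p = 0.00574). SKI also passed as higher with library totals and with GC and length modelled, at 0.35 and 0.37 (edgeR adjusted p = 0.00421 and 4.92e-05).

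The ID genes encode helix-loop-helix proteins that lack a DNA-binding region and hold basic helix-loop-helix factors off DNA, and ID1, ID2 and ID3 all fell. ID1 (ENSG00000125968, chr20:31605283-31606515) had 455, 454 and 474 CPM in ARD1 libraries, against 1025, 994 and 1041 CPM in control libraries. The groups were far apart relative to the spread within each, and the level was 2.21-fold lower (log2 fold change -1.15, SE 0.0650, edgeR adjusted p = 1.29e-09). ID3 (ENSG00000117318, chr1:23557918-23559794) had 124, 134 and 121 CPM in ARD1 libraries and 681, 566 and 588 CPM in control libraries. It was 4.84-fold lower, with control replicate 1 the highest of all (log2 fold change -2.28, SE 0.0835, edgeR adjusted p = 1.27e-11). ID2 had 28.2, 28.3 and 29.1 CPM in ARD1 libraries and 42.8, 45.3 and 48.4 CPM in control libraries, a 1.59-fold lower level (log2 fold change -0.67, SE 0.0823, edgeR adjusted p = 4.77e-06). ID4 had too few counts to test, with 1, 3 and 3 in ARD1 libraries and 12, 3 and 4 in control libraries. Per kilobase of exon, ID1 was the highest of the pathway's genes in both groups, at 373.9 ± 9.03 CPM in ARD1 libraries and 827.2 ± 19.6 CPM in control libraries (SD, n = 3 each).

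The start regions of the ID genes and inhibitory SMADs are printed because these 5 genes, which SMADs are known to induce, all fell, so the choice followed the result. Each region runs from 250 bases before to 50 bases after RefSeq's start of the gene (GRCh38.p14). Capitals mark CAGAC, letters that SMADs bind, or their reverse complement.
ID1, chr20:31605039-31605338, plus strand: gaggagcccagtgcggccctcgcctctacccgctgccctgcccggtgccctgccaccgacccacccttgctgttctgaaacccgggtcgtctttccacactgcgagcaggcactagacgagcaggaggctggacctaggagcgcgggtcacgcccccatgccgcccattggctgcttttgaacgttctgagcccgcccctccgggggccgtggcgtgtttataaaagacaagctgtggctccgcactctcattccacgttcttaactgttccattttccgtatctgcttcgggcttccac
ID2, chr2:8681806-8682105, plus strand: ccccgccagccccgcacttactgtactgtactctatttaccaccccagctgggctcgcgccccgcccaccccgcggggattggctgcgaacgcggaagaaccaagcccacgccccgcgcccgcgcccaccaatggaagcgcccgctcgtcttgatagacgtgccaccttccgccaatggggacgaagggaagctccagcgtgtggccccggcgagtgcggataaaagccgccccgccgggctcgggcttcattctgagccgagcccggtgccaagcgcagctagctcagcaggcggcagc
ID3, chr1:23559452-23559751, minus strand: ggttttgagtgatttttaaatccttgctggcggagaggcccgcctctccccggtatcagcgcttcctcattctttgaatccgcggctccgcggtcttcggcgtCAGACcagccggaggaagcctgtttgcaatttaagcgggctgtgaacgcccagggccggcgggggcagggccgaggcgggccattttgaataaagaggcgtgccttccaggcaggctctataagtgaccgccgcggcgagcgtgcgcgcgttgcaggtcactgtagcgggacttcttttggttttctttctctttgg
SMAD6, chr15:66701986-66702285, plus strand: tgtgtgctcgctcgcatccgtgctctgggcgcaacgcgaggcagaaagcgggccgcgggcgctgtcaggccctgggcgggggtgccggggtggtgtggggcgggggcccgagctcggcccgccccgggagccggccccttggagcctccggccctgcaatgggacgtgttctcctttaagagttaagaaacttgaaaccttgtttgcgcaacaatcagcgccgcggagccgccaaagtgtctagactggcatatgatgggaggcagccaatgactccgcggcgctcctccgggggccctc
SMAD7, chr18:48950916-48951215, minus strand: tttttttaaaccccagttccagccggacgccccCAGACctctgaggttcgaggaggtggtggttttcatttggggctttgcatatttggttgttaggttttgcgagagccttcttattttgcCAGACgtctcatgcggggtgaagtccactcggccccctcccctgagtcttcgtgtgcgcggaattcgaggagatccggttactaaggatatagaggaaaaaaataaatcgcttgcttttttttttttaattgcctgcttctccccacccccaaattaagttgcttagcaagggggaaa
CAGAC, searched on both strands, was found once for ID3, 147 bases before the start, and at 2 places for SMAD7, 217 and 128 bases before it, and not in these windows of ID1, ID2 and SMAD6. CAGAC was present in 45.3% of all 35116 RefSeq promoters and in 22 of the 43 pathway genes with an entry, or 51.2%. GGCGCC, a core of BMP-SMAD elements, was in none of the 5 windows, in 13 of the 43, or 30.2%, and in 19.2% of all promoters. Among pathway genes that did not fall, SKIL had CAGAC at 1 place and GGCGCC at 1, and BAMBI had them at 2 and 3. GGCGCC with GTCT beginning 5 bases after its end was in none of the 43 and in 36 of all promoters. A match of such short letters is a description of the sequence and does not mark a bound site. GTCT alone was not searched, although gtctagac lies in the printed SMAD6 window, and neither was sequence outside the windows. A window without CAGAC is therefore not shown to lack SMAD-binding letters.

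**Figure D3:**
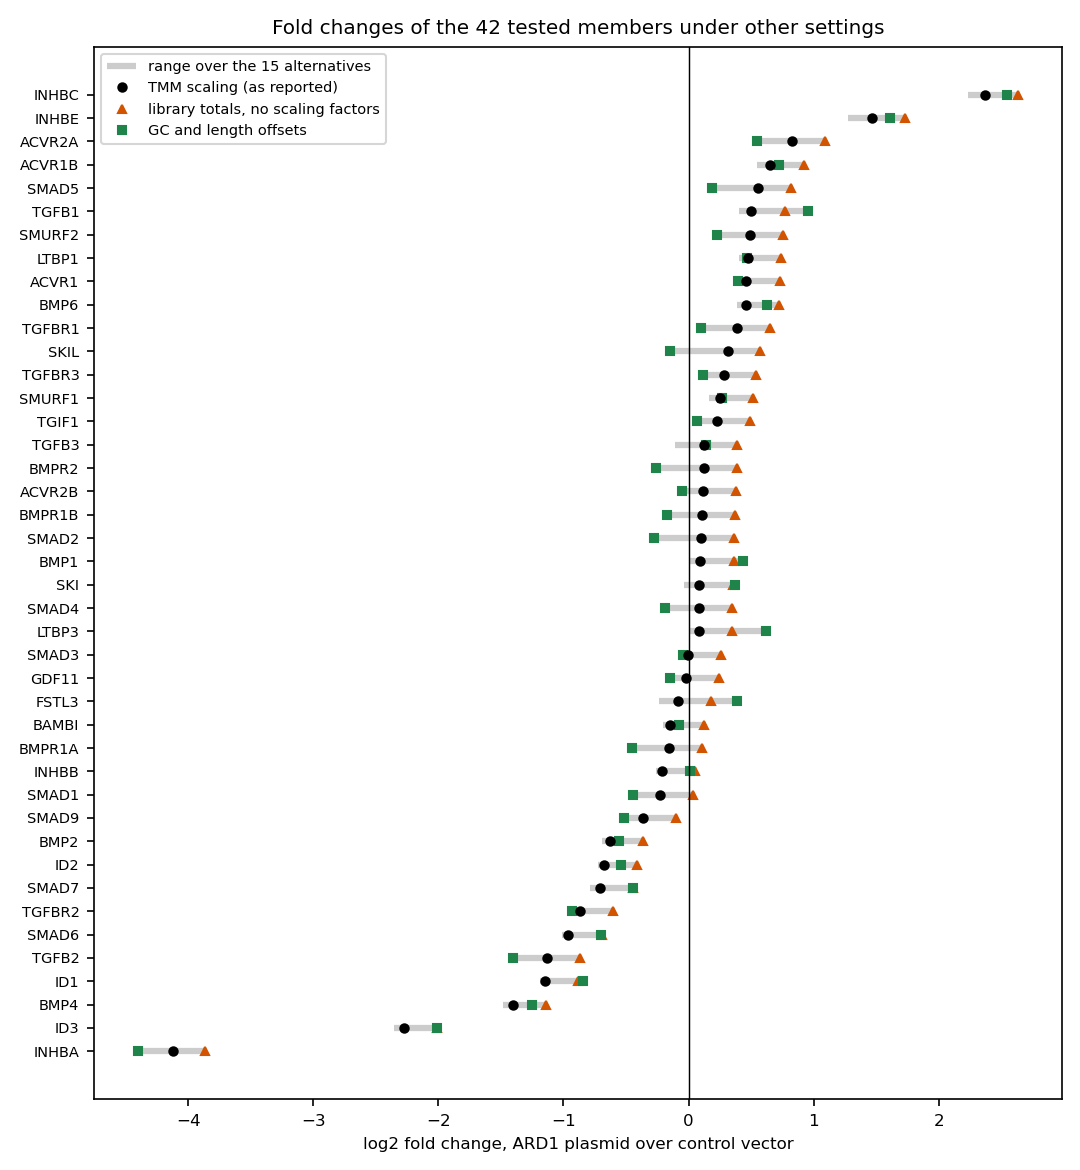
Log2 fold change, ARD1 plasmid over control vector, of each of the 42 tested pathway genes (black points), its range over the 15 alternatives (grey bars), and its value with library totals (triangles) and with GC and length offsets (squares). The ranges of ID1, ID3, SMAD6, SMAD7, BMP4, TGFB2 and TGFBR2 stay below 0, and among called genes those of INHBB, SMAD1 and SKIL cross it.

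Outside these 49 genes, 119 other genes of the pathway were listed from textbook knowledge, with earlier results of these data known, of which 102 were in the table and 83 were tested. Of the 83, 34 rose, 29 fell and 20 did not pass. The 75.9% that passed, beside 64.6% of all tested genes, is a description and supports no difference from other genes. Their median log2 fold change was 0.06. The 5 ligands tested, of 8 in the table, rose, but GDF7, NODAL and BMP8A passed the filter on low counts through the ARD1 libraries alone, which already favoured a rise. GDF15, a stress-induced divergent ligand, averaged 119 ± 5.39 CPM in ARD1 libraries and 10.7 ± 1.24 CPM in control libraries (SD, n = 3 each; log2 fold change 3.48, SE 0.0954, edgeR adjusted p = 5.96e-13). AMH, the anti-Müllerian hormone, averaged 31.6 ± 1.73 CPM in ARD1 libraries and 7.85 ± 1.13 CPM in control libraries (log2 fold change 2.01, edgeR adjusted p = 1.26e-09). GDF7 had 26, 28 and 38 counts in ARD1 libraries and 6, 5 and 3 in control libraries (log2 fold change 2.48, edgeR adjusted p = 8.52e-05). Of 4 tested further receptors and co-receptors, 2 fell and 1 rose. TDGF1, the Nodal co-receptor, averaged 0.251 ± 0.0376 CPM in ARD1 libraries and 4.77 ± 1.30 CPM in control libraries (log2 fold change -4.22, edgeR adjusted p = 2.57e-08). It passed the filter through the control libraries alone, with 5, 7 and 7 counts in ARD1 libraries and 98, 77 and 138 in control libraries. ENG, the co-receptor endoglin, averaged 3.63 ± 0.141 CPM in ARD1 libraries and 10.9 ± 1.02 CPM in control libraries (log2 fold change -1.59, edgeR adjusted p = 1.12e-07). RGMB, a BMP co-receptor, rose with 7.11 ± 0.880 CPM in ARD1 libraries and 4.15 ± 0.469 CPM in control libraries (log2 fold change 0.78, edgeR adjusted p = 0.000472). The endothelial markers CDH5, which fell, and PECAM1, which rose, moved in opposite directions in the same libraries, and their part in the value of ENG was not tested.

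Of 7 tested further antagonists, 3 rose and 2 fell. Beside this count and those of the lists below, 32.4% of all tested genes were called higher and 32.2% lower. SOST, sclerostin, a secreted WNT antagonist of bone, was only listed with these antagonists. It averaged 1.02 ± 0.386 CPM in ARD1 libraries and 131 ± 3.60 CPM in control libraries (log2 fold change -7.01, SE 0.147, edgeR adjusted p = 1.19e-13). NBL1 averaged 94.7 ± 4.47 CPM in ARD1 libraries and 63.1 ± 6.84 CPM in control libraries (log2 fold change 0.59, edgeR adjusted p = 2.58e-05). TWSG1, a chordin partner, averaged 114 ± 2.65 CPM in ARD1 libraries and 80.8 ± 8.68 CPM in control libraries (log2 fold change 0.50, edgeR adjusted p = 8.21e-05). The fall of SOST was far larger in size than the rises of NBL1 and TWSG1. Of 14 tested genes of storage and activation, 6 fell and 2 rose. ITGB8, the integrin subunit that activates latent TGF-beta, averaged 1.54 ± 0.214 CPM in ARD1 libraries and 5.37 ± 0.683 CPM in control libraries (log2 fold change -1.80, edgeR adjusted p = 1.40e-06). LTBP4 averaged 96.6 ± 3.55 CPM in ARD1 libraries and 148 ± 5.34 CPM in control libraries (log2 fold change -0.62, edgeR adjusted p = 1.88e-06), opposite in sign to LTBP1. PCSK5, a proprotein convertase, averaged 27.4 ± 2.34 CPM in ARD1 libraries and 14.4 ± 0.927 CPM in control libraries (log2 fold change 0.93, edgeR adjusted p = 1.33e-06). Among 21 tested intracellular regulators, 9 rose and 4 fell. TGIF2, a SMAD co-repressor, averaged 22.2 ± 1.47 CPM in ARD1 libraries and 45.7 ± 1.43 CPM in control libraries (log2 fold change -1.04, edgeR adjusted p = 7.02e-08). The co-activator CREBBP averaged 174 ± 3.205 CPM in ARD1 libraries and 115 ± 8.79 CPM in control libraries (log2 fold change 0.60, edgeR adjusted p = 4.42e-06). The ubiquitin ligase NEDD4L averaged 86.8 ± 5.56 CPM in ARD1 libraries and 59.9 ± 2.07 CPM in control libraries (log2 fold change 0.54, edgeR adjusted p = 1.97e-05).

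Known target genes beyond the ID and SMAD genes did not move one way. Of 10 tested BMP targets, 5 fell and 3 rose, with a median log2 fold change of -0.30. For these and for the TGF-beta and activin targets below, the share over all tested genes was 32.4% higher and 32.2% lower. ATOH8, a basic helix-loop-helix factor that BMP signals induce in liver cells, averaged 31.5 ± 1.88 CPM in ARD1 libraries and 122 ± 12.9 CPM in control libraries (log2 fold change -1.96, SE 0.0893, edgeR adjusted p = 1.17e-10). GATA2, a blood and endothelial transcription factor, averaged 60.1 ± 2.16 CPM in ARD1 libraries and 151 ± 14.8 CPM in control libraries (log2 fold change -1.32, edgeR adjusted p = 3.04e-09). UNC5B, a netrin receptor, rose, with 83.6 ± 7.90 CPM in ARD1 libraries and 3.98 ± 0.961 CPM in control libraries (log2 fold change 4.39, SE 0.137, edgeR adjusted p = 2.51e-12). HAMP, which encodes hepcidin, was barely detected and averaged 0.857 ± 0.164 CPM in ARD1 libraries and 0.735 ± 0.0259 CPM in control libraries (log2 fold change 0.22, edgeR adjusted p = 0.560). Of 24 tested targets of TGF-beta and activin, 11 rose and 11 fell, with a median log2 fold change of -0.19. FN1, fibronectin, averaged 5298 ± 85.5 CPM in ARD1 libraries and 29439 ± 2573 CPM in control libraries (log2 fold change -2.47, SE 0.0824, edgeR adjusted p = 4.76e-12). BHLHE40, a transcriptional repressor, averaged 126 ± 4.54 CPM in ARD1 libraries and 299 ± 17.03 CPM in control libraries (log2 fold change -1.25, edgeR adjusted p = 1.24e-09). KLF10, a repressor first known as a TGF-beta early response gene, rose, with 340.5 ± 13.3 CPM in ARD1 libraries and 155 ± 9.196 CPM in control libraries (log2 fold change 1.13, edgeR adjusted p = 3.70e-09). CCN2, connective tissue growth factor, averaged 47.5 ± 2.57 CPM in ARD1 libraries and 26.1 ± 3.53 CPM in control libraries (log2 fold change 0.86, edgeR adjusted p = 2.89e-06). Of the hepatocyte markers 3 fell and 3 rose in the same libraries, and their part in these values was not tested.

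**Figure D4:**
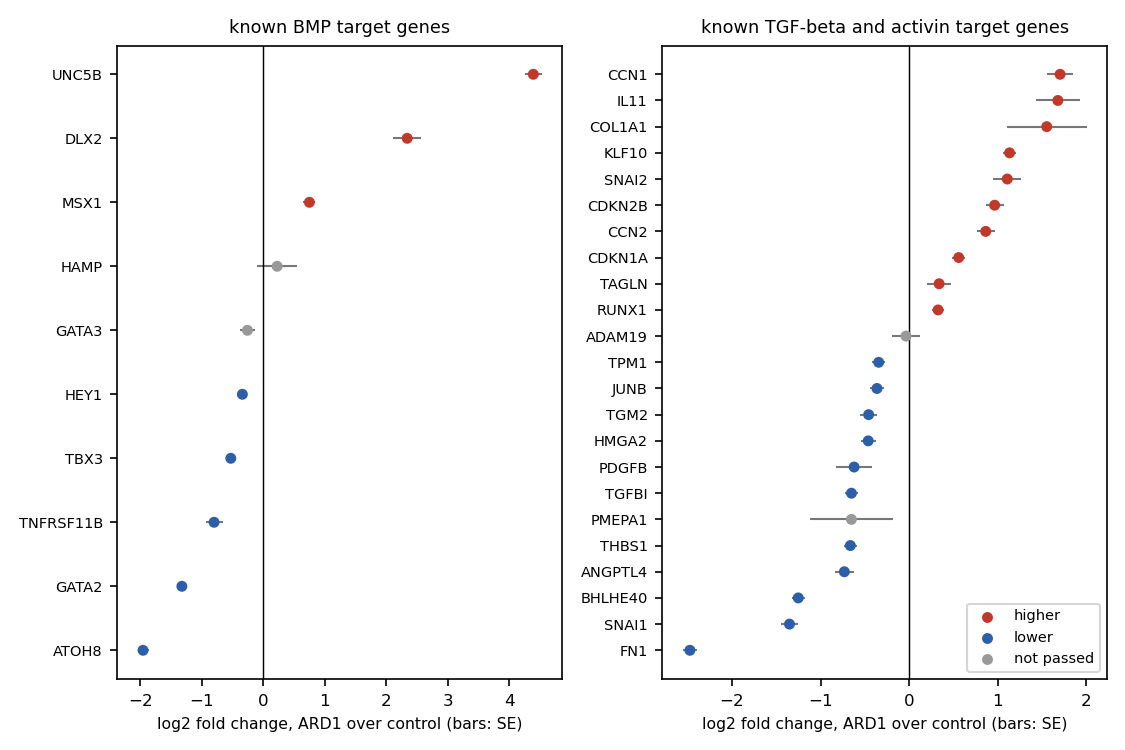
Log2 fold changes of tested BMP targets and of 23 tested TGF-beta and activin targets, ARD1 plasmid over control vector, with bars for the standard error, red points for genes that rose, blue for genes that fell and grey for genes that did not pass. BMP targets run from ATOH8 at -1.96 to UNC5B at 4.39, and among the TGF-beta and activin targets FN1 lies lowest at -2.47 and KLF10 is at 1.13.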

How the data were processed

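Raw whole-number counts per Ensembl gene, as the authors deposited them, were read for all 6 libraries. Trizol extraction, ribosomal RNA depletion and a directional kit were used, per the labels' protocols. Per the submitters' processing notes, cutadapt 4.6, STAR 2.7.11b and the GRCh38 build were used. No counter, strand setting or annotation release is named in the labels, so reads of overlapping and antisense genes may be shared. Symbols matched 25052 of the 25071 identifiers, and every gene had at least 2 counts over the 6 libraries. Coordinates and exon lengths are from GENCODE 29 (GRCh38), and promoters from RefSeq (GRCh38.p14).

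Genes were kept by edgeR's filterByExpr (15816 kept, 9255 removed), scaled by TMM and compared, ARD1 plasmid over control vector, with edgeR's two-sided quasi-likelihood test over all 6 libraries without covariates (edgeR 4.0.16, R 4.3.3), with Benjamini-Hochberg adjustment over all tested genes and a threshold of 0.05. The steps were tested on simulated data with few genes changed, in both directions. Such data cannot show how the scaling behaves where most tested genes are called, as here. Groups and numbers came from the sample titles, which leave unsaid whether each library was a culture of its own, and the p-values then reflect variation among these libraries, which may be technical. Standard errors follow from the F statistic, and levels per kilobase divide CPM by merged exon length. Without molecular identifiers, the floors reflect counting error alone. Pseudogenes named after BMP6, BMPR1A, SMURF2 and TGIF1 exist and may share reads with them.

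All 49 genes are described by role. Library values are given for those past the threshold with at least 1 CPM in the higher group. Of the other pathway genes, up to 3 per list with the smallest p, and GDF15, CCN2, FN1, HAMP and ATOH8, are named. A further gene that the rule picks is not reported here. The genes and lists were chosen with earlier results of these data known. Alternatives were RLE and upper-quartile scaling, library totals, DESeq2 1.42.0, limma-voom (limma 3.58.1), no filter, a filter of 1 CPM in 3 libraries, GC and length offsets, the replicate number as a block, a minimum absolute log2 fold change of 1, and leaving out each library.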

Additional observations from a re-analysis of the deposited data

How the results depend on the processing

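Of the 27 pathway genes past the threshold, 20 kept their call and direction in all 15 alternatives that test each gene against no change, 10 higher and 10 lower, while INHBB, TGFBR1, TGFBR3, SMAD1, SMURF1, SKIL and TGIF1 lost it in at least 1. No pathway gene's fold moved by over 1.5 times. Of the 15 that did not pass, 13 passed in at least 1 alternative, 10 of them with library totals and 10 with GC and length offsets. Leaving out each library in turn gave 9271 to 10984 called genes, 13 to 17 pathway genes higher and 10 to 14 lower, and 33 to 36 other pathway genes higher and 27 to 31 lower. Without control replicate 1 there were 17 higher and 14 lower.

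With library totals in place of TMM, the median log2 fold change of all genes was 0.30 in place of 0.03, 68.6% of calls were higher in place of 50.2%, and 25 pathway genes were higher in place of 15 and 10 lower. Those totals turned the sign of GDF11 (0.24), INHBB (0.050), FSTL3 (0.18), BMPR1A (0.11), BAMBI (0.12), SMAD1 (0.037) and SMAD3 (0.26), and upper-quartile scaling that of GDF11 (0.020) and SMAD3 (0.036). GC and length offsets, which gave 15 pathway genes higher and 18 lower, turned INHBB (0.014), FSTL3 (0.39), BMPR1B (-0.17), BMPR2 (-0.26), ACVR2B (-0.056), SMAD2 (-0.28), SMAD4 (-0.19) and SKIL (-0.15). Those 15 and 18 stand without the share of all genes called with these offsets, so they show no trait of the pathway. Leaving out 1 library at a time, SMAD3 ranged over -0.088 to 0.027 and turned without ARD1 replicate 1 (0.0015), ARD1 replicate 3 (0.016) or control replicate 1 (0.027). TGFB3 ranged over -0.11 to 0.31 and turned without ARD1 replicate 2 (-0.035) or control replicate 1 (-0.11). BMPR1B ranged over -0.036 to 0.21, turning without control replicate 1, and SKI over -0.037 to 0.20, turning without control replicate 3. The cause was not tested. A minimum absolute log2 fold change of 1 left 3406 genes, 2 pathway genes higher and 5 lower, and 13 other pathway genes higher and 14 lower, fewer by construction. 

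Same-numbered libraries deviated together at 0.03, -0.09 and 0.10, and not every library correlated best with its own number, so the numbers were not taken as pairs. With the replicate number as a block, 10293 genes were called, with 15 pathway genes higher and 10 lower, and INHBB (adjusted p = 0.0511) and SMAD1 (adjusted p = 0.0535) were lost. INHA and ID4 had too few counts at this depth to be tested.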
